A study of Homo sapiens with 23 samples.

Results

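Expression of 7 oncofetal genes, IGF2BP1, IGF2BP2, IGF2BP3, HMGA1, HMGA2, LIN28A and LIN28B, was followed across every group of a series on ONECUT2 (OC2) in prostate cancer cells. They are 7 of 80580 gene names and identifiers that the 3 deposited count tables hold between them. The genes were chosen by name as a gene family, with earlier results from these same counts in view. Which contrast guided that choice is not recorded, so every difference between groups of these 7 genes is given as a description, without a p-value.

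The 23 libraries fall into 9 groups of 2 androgen-sensitive lines, LNCaP and LAPC4, both from human prostate adenocarcinoma. LNCaP was grown in RPMI-1640 medium with serum, and came as control (2 libraries), OC2 OE (OC2 overexpression, 2), shCon (control hairpin, 2) and shOC2 (hairpin against OC2, 2). LAPC4 was grown in IMDM with serum and 1 nM R1881, a synthetic androgen, in both of its groups, Vec (vector, 3) and OC2 OE (3). In the drug experiment LNCaP received, for 7 days, vehicle (3), enzalutamide at 10 µM (3), an antiandrogen drug, or the combination of enzalutamide at 10 µM with an OC2 inhibitor at 10 µM (3). Whether the overexpressing and hairpin cells were clones or pools, and which promoter drove OC2, is not stated in the sources used here, and a single hairpin name against OC2 is given. Nothing in the labels says that the libraries of a group were separate cultures, so tests measure only the spread between these libraries.

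The IGF2BP proteins bind messenger RNAs and affect their stability, transport and translation. HMGA proteins are small chromatin proteins that bind AT-rich DNA, and LIN28 proteins bind precursors of the let-7 microRNAs and hold back their maturation. All 3 families are known for high expression in the embryo, low expression in most adult tissues and renewed expression in some tumours, and several of their messages are textbook targets of let-7.

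Because let-7 links the 3 families, its sequences are shown first. The RefSeq table (GRCh38.p14) held 9 mature let-7 and miR-98 strands of the 5p arm, and all 9 shared the same seed, bases 2 to 8, which is printed in capitals for 3 of them.
let-7a-5p: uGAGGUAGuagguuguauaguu
let-7d-5p: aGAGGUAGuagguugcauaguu
miR-98-5p: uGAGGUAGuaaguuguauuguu

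LIN28 is known to bind GGAG near the loop of let-7 precursors. The letters GGAG, in capitals below, stood after the mature 5p strand in 9 of the 12 hairpins of the table. The hairpins of MIRLET7A1 (chr9:94175957-94176036, plus strand), which has them, and MIRLET7A3 (chr22:46112749-46112822, plus strand), which does not, carry the same mature strand.
MIRLET7A1: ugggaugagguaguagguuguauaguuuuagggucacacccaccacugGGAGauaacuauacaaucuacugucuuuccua
MIRLET7A3: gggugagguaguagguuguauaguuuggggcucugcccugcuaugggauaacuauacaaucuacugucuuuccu

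The reverse complement of the seed, CTACCTC, was searched in the 3′ untranslated region of the principal transcript of each gene (GENCODE 29, hg38). All 7 members held at least 1 match, 16 in all, and 9 of the 16 were followed by an A. Of 18929 genes with such a region, 8.60% held a match. The members' regions were long, from 1347 to 6206 bases beside a median of 876 over all genes, and a longer region holds more matches by length alone. IGF2BP1, HMGA2 and LIN28B held 4 each, and 12 genes in all held 4 or more. One site of each member, with the match in capitals, reads as follows.
IGF2BP1: tgtgtgcgaagtaaaCTACCTCaaggta
IGF2BP2: aacacacagaagaagCTACCTCaggtgt
IGF2BP3: tgcatttttactcaaCTACCTCaggtat
HMGA1: tcctctgttcacaaaCTACCTCtggaca
HMGA2: gccaacgttcgatttCTACCTCagcagc
LIN28A: gcacagcctattgaaCTACCTCattttt
LIN28B: acccggttgcaaagtCTACCTCatgcaa

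These matches are letters in a transcript model and not measured sites, and mature let-7 was not analysed here. A longer annotated 3′ region of HMGA2, of 7421 bases in a transcript that is not the principal one, held 0 matches, so the count for HMGA2 depends on the transcript used.

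**Figure D1:**
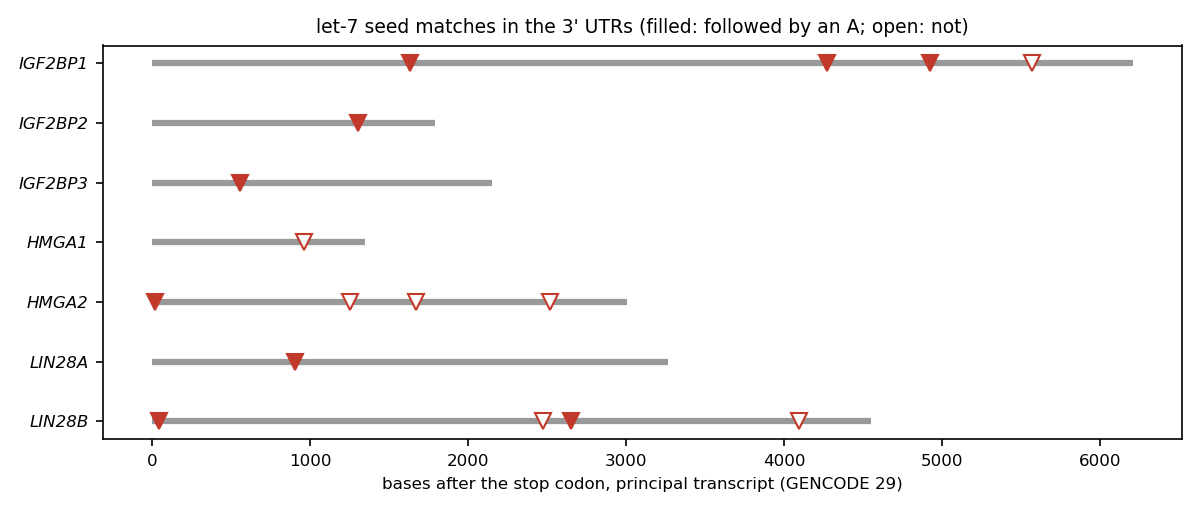
Position of each let-7 seed match in the 3′ untranslated region of the 7 genes, in bases after the stop codon of the principal transcript; grey bars give the length of the region, filled marks are matches followed by an A and open marks are matches that are not. IGF2BP1, HMGA2 and LIN28B carry 4 matches each and the other genes carry 1.

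Library totals ran from 20964025 to 30465978 counts. ONECUT2 followed its labels: 24.6 and 30.6 CPM (counts scaled to the library size within each table) in LNCaP control, 333.6 and 305.8 in OC2 OE, 20.4 and 21.2 in shCon, and 12.1 and 12.1 in shOC2. In LAPC4 it stood between 13.2 and 16.97 CPM in Vec and between 811 and 969 in OC2 OE. All 9 luminal prostate markers, among them KLK3 and KRT8, were detected in every group. Their summed level was 6967 to 7121 CPM in LNCaP control and 4341 to 4497 in OC2 OE, 5718 to 5923 in shCon and 6984 to 7007 in shOC2, and 3132 to 3306 in LAPC4 Vec and 2511 to 2698 in OC2 OE. Of 11 markers of blood, endothelial, stromal and pluripotent cells, the summed level stayed between 5.69 and 58.2 CPM per library, with COL1A1 the highest of them in every LNCaP group, and the T cell marker CD3E was at 0 counts in 6 of the 7 LNCaP groups. In LAPC4 this sum was 5.69 to 7.56 CPM in Vec and 17.1 to 19.4 in OC2 OE, with the collagen gene COL1A2 at 0.05 and 8.77 CPM, and the part of either marker list in the results below was not tested. In bulk RNA, fewer cells with a transcript and less transcript per cell cannot be told apart.

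The LNCaP control and shCon libraries, both without a change of OC2 by design, were apart in 56.4% of 16790 genes tested with edgeR at an adjusted p under 0.05. A gene past that threshold, adjusted over all genes tested in the comparison, is termed called. For the members the term gives only the side of that threshold, as a description and not as a test of them. ONECUT2 itself was called lower in shCon than in control, with a log2 fold change of -0.41 (SE 0.11). The enzalutamide columns hold whole counts while the vehicle and combination columns beside them do not, so an effect of enzalutamide and an effect of the counting step cannot be told apart. In the same columns MATR3, an RNA-binding partner of IGF2BP proteins, stood at 6.42 CPM, beside 346 CPM in vehicle and 377 CPM in the combination, and it stood at 7.11 and 6.62 CPM in LAPC4, whose table is also in whole counts. One enzalutamide library, whose column carries no number, stood apart from the others of its arm (chi-square per degree of freedom 86.0 and 57.6, beside 24.9 between the others and 3.51 to 40.1 in other groups), and values without it are given below. LAPC4 Vec replicate 3 also differed from the others of its group (40.1 and 22.4, beside 5.11 between those others). Without that Vec library 12089 genes were called in LAPC4 overexpression, beside 10329 with it.

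IGF2BP1 lies on chromosome 17 from 48997412 to 49055650 (plus strand, hg38) and is the family member most tied to fetal tissue. It was at 0 counts in both LNCaP control libraries and at 384 and 373 counts in the OC2 OE libraries, which is 18.3 and 17.8 CPM. The 4 hairpin libraries held 0, 1, 0 and 2 counts. In LAPC4 the Vec libraries held 3, 5 and 5 counts and the OC2 OE libraries 1698, 1865 and 1807. Every library without added OC2 held 5 counts or fewer, and all 5 with it held 373 or more.

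On a floor of 3 counts per library, IGF2BP1 was at least 129-fold higher in LNCaP OC2 OE than in control. Against the shCon libraries, which held 1 count in all, the ratio scaled for library size was 871 (exact 95% interval 156 to 34460). In LAPC4 the log2 fold change was 8.61 (SE 0.15), and the ratio of summed counts, scaled for library size, was 402.5 (235.2 to 756.5). These intervals and floors cover counting error only. Some members passed the filter on low counts only through the group in which they were high, so they had to differ: IGF2BP1 in both overexpression comparisons, HMGA2 in LNCaP, and IGF2BP2 in the drug table and between shCon and control. Levels differed between lines with overexpression: 60.0 ± 3.82 CPM (SD, n = 3) in LAPC4 and 18.03 ± 0.37 CPM (n = 2) in LNCaP, in tables that were scaled separately.

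IGF2BP2, on chromosome 3 from 185643739 to 185825056 (minus strand), encodes the family member found most widely in adult tissue. LNCaP control held 0.78 and 1.29 CPM and OC2 OE held 6.34 and 5.19 CPM. The shCon libraries held 0.16 and 0.33 CPM, from 4 and 8 counts, and shOC2 held 0.18 and 0.14 CPM. LAPC4 Vec held 4.197, 4.86 and 4.39 CPM and LAPC4 OC2 OE 62.4, 66.6 and 63.4. The libraries with added OC2 were the highest of their line, and the 2 hairpin groups overlapped.

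The log2 fold change of IGF2BP2 with OC2 OE was 2.44 (SE 0.26, 5.43-fold) in LNCaP and 3.83 (SE 0.09, 14.2-fold) in LAPC4, and both were called. Against shCon the LNCaP ratio was 23.2 (exact 95% interval 13.05 to 45.55). At 7 counts in shOC2 and 12 in shCon, IGF2BP2 did not pass the filter in the knockdown comparison. The ratio scaled for library size was 0.64, with an interval from 0.21 to 1.77.

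IGF2BP3, on chromosome 7 from 23310209 to 23470467 (minus strand), encodes the member best known as a tumour marker. It shares 1521 exonic bases with MALSU1 on the other strand, and whether counting used strand is not given in the sources used here. In LNCaP it stood at 15.2 and 17.9 CPM in control and at 17.1 and 18.3 CPM in OC2 OE. In shCon it stood at 7.42 and 6.36 CPM and in shOC2 at 5.79 and 5.36 CPM. LAPC4 Vec held 43.2, 49.3 and 47.2 CPM and LAPC4 OC2 OE 54.3, 54.9 and 55.0.

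Unlike the pattern of IGF2BP1, every group held IGF2BP3, and added OC2 moved it little against the matched reference. The log2 fold change was 0.07 (SE 0.11) in LNCaP, not called, and 0.23 (SE 0.07) in LAPC4, called. The LAPC4 call was lost without Vec replicate 1 (0.18, SE 0.07) and without OC2 OE replicate 3 (0.23, SE 0.09). In the knockdown the value was -0.29 (SE 0.15), with both shOC2 libraries below both shCon libraries, and it was not called. Against shCon the LNCaP OC2 OE libraries were higher by 1.35 (SE 0.12), which was called, and shCon was itself lower than control by 1.27 (SE 0.14). MALSU1 stood at 40.1 CPM in control, 41.4 in LNCaP OC2 OE, 36.6 in shCon and 30.7 in shOC2.

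HMGA1, on chromosome 6 from 34236873 to 34246231 (plus strand), encodes the HMGA protein that dividing cells commonly express. It was the highest of the 7 genes per kilobase of exon in all 9 groups, between 52.2 and 272 CPM per kilobase, while the highest value of any other member was 13.54, for IGF2BP2 in LAPC4 OC2 OE. LNCaP control held 191 and 154 CPM and OC2 OE 329 and 321. The hairpin libraries held 363 and 385 CPM in shCon and 162 and 192 CPM in shOC2. LAPC4 Vec held 289, 307 and 347 CPM and OC2 OE held 651, 611 and 639.

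HMGA1 rose with OC2 OE by 0.89 on the log2 scale (SE 0.10, 1.86-fold) against control in LNCaP and by 1.01 (SE 0.08, 2.01-fold) in LAPC4, and it fell by 1.07 (SE 0.07, 2.10-fold) with shOC2. The LNCaP rise depended on the reference. The shCon libraries were higher than control by 1.12 (SE 0.10), and against shCon the OC2 OE libraries were lower by a log2 value of -0.22 (SE 0.05), which was also called. In levels, shOC2 at 177 ± 21.7 CPM (n = 2) and control at 172 ± 26.3 CPM (n = 2) overlapped. Of its annotated copies, HMGA1P3, HMGA1P4, HMGA1P7 and HMGA1P8 each held at most 16 counts in any library, beside 3060 or more for HMGA1.

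HMGA2, on chromosome 12 from 65824131 to 65966295 (plus strand), is the more strictly embryonic HMGA gene. Control libraries of LNCaP held 0 and 1 counts and the OC2 OE libraries 51 and 60, while all 4 hairpin libraries held 0. LAPC4 Vec held 15, 14 and 15 counts and OC2 OE 5224, 5640 and 5434 counts. Both lines thus had their highest HMGA2 in the 5 libraries with added OC2, with no overlap.

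The ratio for HMGA2 in LNCaP was 114 (exact 95% interval 20.1 to 4545) against control and at least 21.3-fold against shCon. In LAPC4 the log2 fold change was 8.48 (SE 0.10, 356-fold). The level reached with OC2 OE was 182 ± 10.1 CPM (n = 3) in LAPC4 and 2.64 ± 0.30 CPM (n = 2) in LNCaP, again in separately scaled tables. The antisense genes at this locus stayed low: RPSAP52 held 20 counts in all in LAPC4 OC2 OE and 2 in Vec, and HMGA2-AS1 held 3 and 1.

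LIN28A, on chromosome 1 from 26410778 to 26429722 (plus strand), encodes the LIN28 protein of pluripotent stem cells. Against control and Vec it was the one member called lower with added OC2, while HMGA1 was also called lower in LNCaP against shCon. LAPC4 Vec held 276, 269 and 273 counts, or 9.34, 9.20 and 9.59 CPM, and LAPC4 OC2 OE 48, 42 and 44 counts, or 1.58, 1.43 and 1.47 CPM. The log2 fold change was -2.65 (SE 0.13, 6.28-fold lower). Of the 17 LNCaP libraries, 2 held 1 count each and the others 0, so no fold is given for LNCaP. A fall could not have been seen there. The other pluripotency markers were low in LAPC4 in both groups: POU5F1 stood at 0.05 CPM in Vec and 0.64 in OC2 OE, and NANOG at 0.01 and 0.06.

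LIN28B, on chromosome 6 from 104936616 to 105083332 (plus strand), encodes the paralogue more often described in carcinomas. It was at 0 in 21 of 23 libraries, with 1 count in 1 LAPC4 Vec library and 1 in 1 LAPC4 OC2 OE library. At this depth 3 counts in each library of a group correspond to 0.09 to 0.15 CPM, which is the limit that a count of 0 allows. Its antisense neighbour LIN28B-AS1 held 0 counts in every table.

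**Figure D2:**
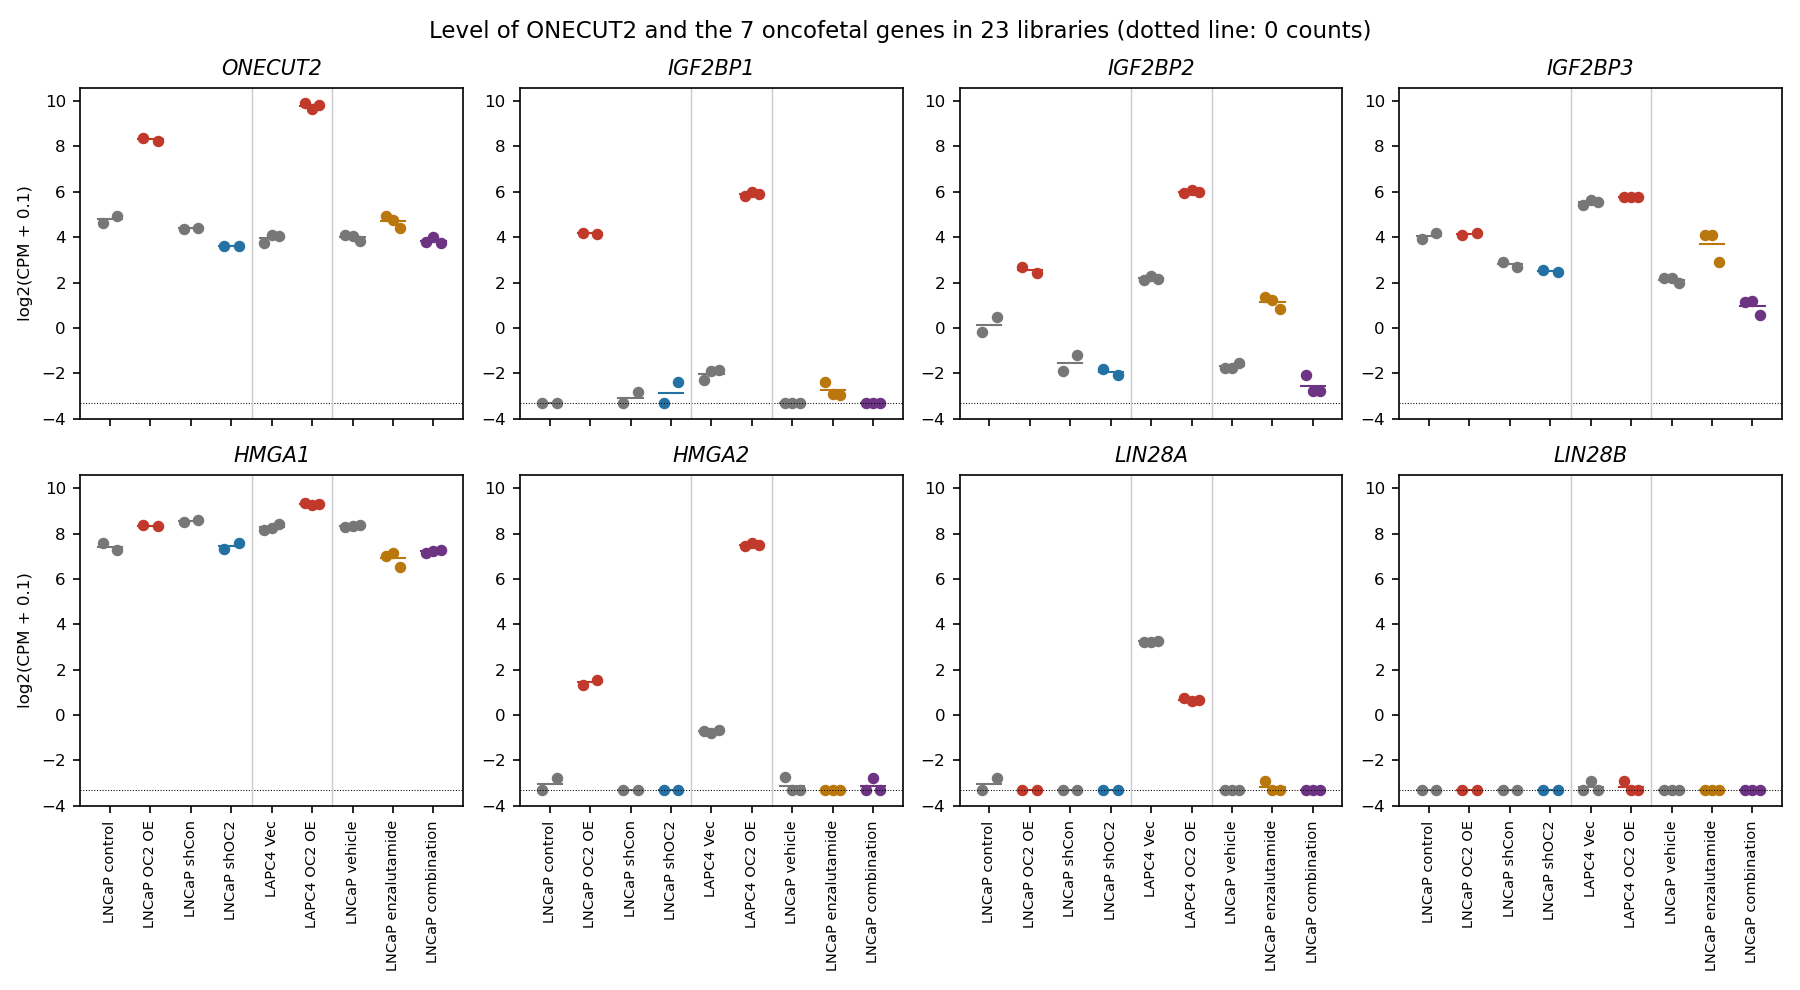
Level of ONECUT2 and of the 7 genes in each of the 23 libraries as log2(CPM + 0.1), by group; points are libraries, short lines are group means of the plotted values, the dotted line marks 0 counts and vertical lines separate the 3 tables. IGF2BP1 and HMGA2 are highest in the OC2 OE groups of both lines, LIN28A has at most 1 count in any LNCaP library, and HMGA1 is the highest of the 7 in every group.

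In counts, 5 of the 7 members passed the filter in the LNCaP overexpression comparison and 4 were called, all higher, where 60.8% of 17046 genes tested were called. In LAPC4, 6 were tested and 6 called, 5 higher and 1 lower, where 61.1% of 16904 genes were called. In the knockdown 2 were tested and 1 was called, lower, where the fit called 54.1% of 16585 genes. Of 3 members tested in shCon against control, 3 were called, 1 higher and 2 lower, where 56.4% of 16790 genes were called. Since most genes were called in each of these comparisons, and the members were chosen with these counts known, nothing is read from these numbers of calls.

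**Figure D3:**
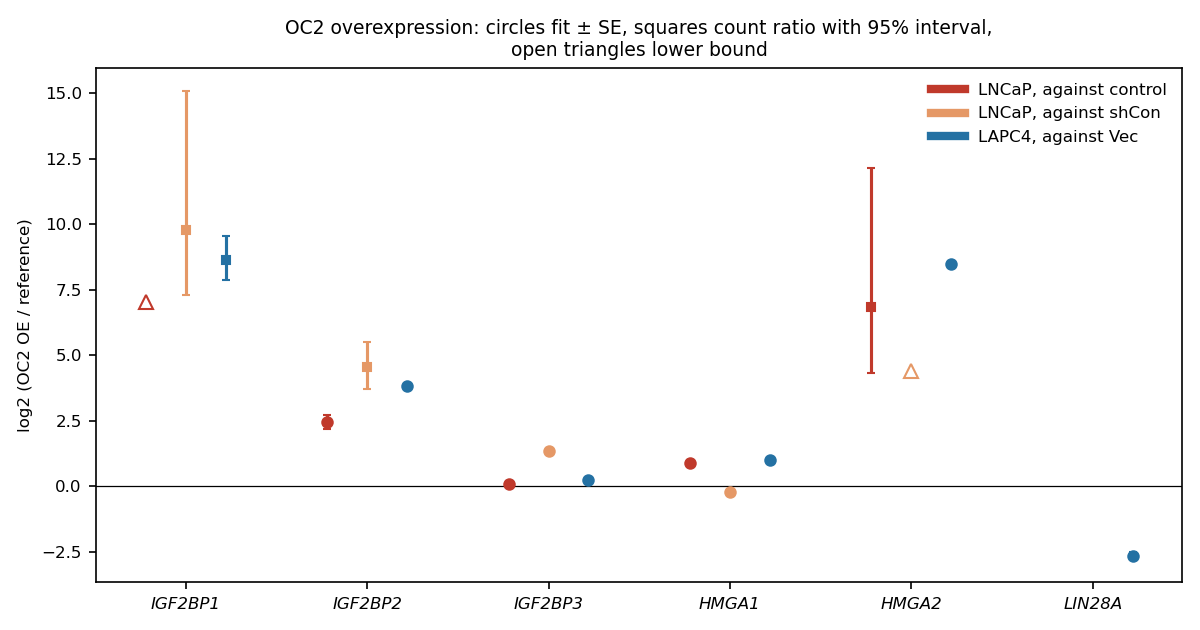
Ratio of OC2 OE to reference on a log2 scale for each gene, in LNCaP against control, in LNCaP against shCon and in LAPC4 against Vec. Circles are the edgeR fit with SE. Squares are ratios of summed counts scaled for library size, with exact 95% intervals, where a group holds few counts. Open triangles are lower bounds where the reference is at 0. IGF2BP1, IGF2BP2 and HMGA2 lie above 0 against each reference, while HMGA1 lies at 0.89 against control and at -0.22 against shCon.

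The response to added OC2 was also compared between the lines, as the difference of the log2 fold changes in LAPC4 and LNCaP, where 49.5% of 19633 genes differed. For IGF2BP2 the difference was 1.39 (SE 0.27), higher in LAPC4 and called, and for HMGA1 (0.11, SE 0.13) and IGF2BP3 (0.15, SE 0.13) it was not called. ONECUT2 itself rose more in LAPC4, by 2.34 (SE 0.17), so the lines differed in the response of ONECUT2 itself. With shCon in place of control the difference for IGF2BP2 became -0.73 (SE 0.34, not called), that for IGF2BP3 -1.18 (SE 0.13, called) and that for HMGA1 1.16 (SE 0.11, called). IGF2BP1, HMGA2 and LIN28A are at or near 0 in LNCaP without added OC2, so no difference of fold changes is given for them.

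In the drug experiment the 4 members IGF2BP1, HMGA2, LIN28A and LIN28B stayed at 3 counts or fewer in every library. IGF2BP1 had 1, 3 and 1 counts in the enzalutamide libraries and 0 in the other 6. The members that could be compared were IGF2BP2, IGF2BP3 and HMGA1. The comparisons share arms: vehicle serves enzalutamide and the combination, and the combination is also set against enzalutamide.

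IGF2BP2 stood at 0.19, 0.20 and 0.24 CPM in vehicle, at 1.70, 2.48 and 2.26 CPM in enzalutamide and at 0.14, 0.05 and 0.05 CPM in the combination. The 3 arms did not overlap, with enzalutamide highest and the combination lowest, although the combination rests on 5 counts and vehicle on 13. The gene was kept in this table only by the enzalutamide arm, and it was not tested when vehicle and combination were fitted alone. The ratio of enzalutamide to vehicle in summed counts, scaled for library size, was 10.18 (exact 95% interval 5.825 to 19.45). The fitted log2 value was 3.31 (SE 0.35), or 3.45 (SE 0.35) without the library that stood apart. The ratio of the combination to vehicle was 0.36 (0.10 to 1.08), an interval that includes no difference. Between the combination and enzalutamide the fitted log2 value was -4.73 (SE 0.41).

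IGF2BP3 stood at 4.51, 4.44 and 3.801 CPM in vehicle, at 7.37, 16.8 and 16.8 CPM in enzalutamide and at 2.13, 2.20 and 1.40 CPM in the combination. The first enzalutamide value is of the library that stood apart, and it lay below the others and above every vehicle library. Enzalutamide was higher than vehicle by 1.68 (SE 0.30, 3.20-fold), and by 1.97 (SE 0.16) without that library. The combination stood at -1.15 (SE 0.33, 2.22-fold lower) against vehicle and at -2.83 (SE 0.32, 7.11-fold lower) against enzalutamide, both called. The fall against vehicle was not called without combination replicate 3 (-0.97, SE 0.36). The overlapping gene MALSU1 stood at 36.5 CPM in vehicle, 19.9 in enzalutamide and 27.9 in the combination, another order than that of IGF2BP3. In LAPC4, also in whole counts, MALSU1 stood at 19.3 CPM in Vec and 20.2 in OC2 OE. The part of the overlap or of the counting step in these levels was not tested.

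HMGA1 ran otherwise, with 315, 318 and 333 CPM in vehicle, 92.8, 129 and 143 CPM in enzalutamide and 141.9, 148.1 and 154.4 CPM in the combination. Both treated arms lay below every vehicle library, and they overlapped each other. The log2 fold change was -1.41 (SE 0.13, 2.66-fold lower) with enzalutamide, -1.26 (SE 0.07) without the library that stood apart, and -1.12 (SE 0.13, 2.18-fold lower) with the combination. Between the combination and enzalutamide the log2 difference was 0.29 (SE 0.13), not called, and it was called without one enzalutamide library (0.43, SE 0.12). ONECUT2 was at 15.9 ± 1.58 CPM in vehicle, 26.1 ± 4.97 in enzalutamide and 14.3 ± 1.45 in the combination (n = 3 each).

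Of the 3 members tested in the drug table, 3 were called for enzalutamide against vehicle (70.4% of 17415 genes called), 2 for the combination against vehicle (46.8%) and 2 for the combination against enzalutamide (61.9%), with IGF2BP2 among those called in the first and the last under the limit given for it. The comparison of the combination with vehicle is the one that sets columns of a single kind of counting against each other. Its filter, scaling and estimate of the spread still used the enzalutamide columns. Fitted on the 2 arms alone, 9388 of 16009 genes tested were called. There IGF2BP3 stood at -1.15 (SE 0.21) and HMGA1 at -1.12 (SE 0.06). In both fits IGF2BP3 and HMGA1 were called lower, and no member tested was higher.

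**Figure D4:**
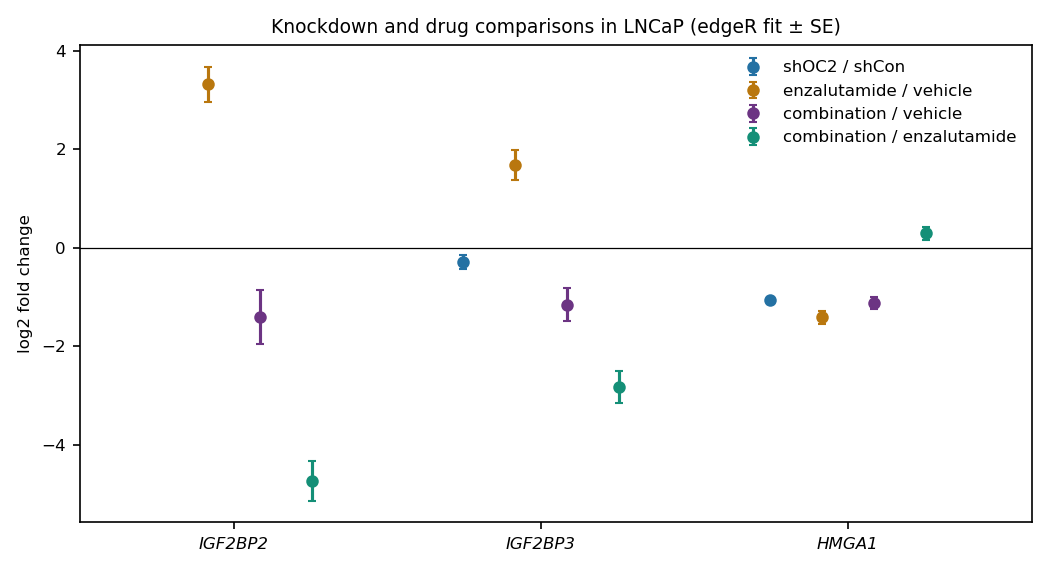
Log2 fold change from the edgeR fit, with SE, of IGF2BP2, IGF2BP3 and HMGA1 for shOC2 against shCon and for the 3 drug comparisons; IGF2BP2 has no value for the hairpin because it did not pass the filter, and its drug values rest on 13 counts in vehicle and 5 in the combination. IGF2BP2 and IGF2BP3 lie above 0 for enzalutamide and below 0 for the combination, while HMGA1 lies below 0 for enzalutamide, the combination against vehicle and shOC2.

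Across the 9 groups, taken in order of mean level, IGF2BP1, IGF2BP2, IGF2BP3, HMGA1 and HMGA2 each stood highest in LAPC4 OC2 OE, and LIN28A in LAPC4 Vec. The tables were scaled separately and differ in kind of counting, and the lines differ in medium and R1881. Any order across tables is therefore a description only. IGF2BP1, IGF2BP2 and HMGA2 were also higher in LNCaP OC2 OE than in any other LNCaP group. HMGA1 was not: shCon lay above LNCaP OC2 OE, which overlapped vehicle and LAPC4 Vec. Over the 23 libraries, with each table centred, the gene most correlated with IGF2BP2 was ONECUT2 (Pearson r = 0.96), followed by SAMD4A (0.96) and NAB2 (0.96), among 11718 genes. For IGF2BP3 they were GABPB1 (0.95), ADAMTS3 (0.94) and NNT (0.93), and for HMGA1 TSEN15 (0.96), NUP153 (0.95) and UROS (0.94). Libraries of a table share their groups and their counting, so these values describe the pattern only. The remaining members did not reach 1 CPM in a group of every table and were not ranked.

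Promoter windows of 300 bases around annotated starts were in the RefSeq table (GRCh38.p14) for IGF2BP2, IGF2BP3, HMGA1 and LIN28B, 7 windows in all. The core letters of ONECUT factor sites, ATTGAT or ATCGAT on either strand, were in 0 of the 7, and in 6.26% and 0.763% of 35116 windows of all genes. That says only that these letters are not in these windows.

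Genes tied to the members by function moved in both directions. The lists were chosen with earlier results of these data known. Called genes named here and in the paragraphs on lists below are among those of largest change in their list. Their adjusted p-values therefore describe these genes and do not test them. The counts that follow stand beside 60.8% of all genes tested called in LNCaP OC2 OE (5380 higher, 4986 lower) and 61.1% in LAPC4 (5427 higher, 4902 lower), and nothing is called particular to a list. Of 11 let-7 processing genes and decay partners of LIN28, 5 rose and 1 fell in LNCaP OC2 OE, among them the terminal uridylyltransferase TUT4 (31.4 to 57.0 CPM, log2 fold change 0.84, edgeR adjusted p = 2.65e-05, with shCon at 53.3 CPM) and its paralogue TUT7 (0.63, adjusted p = 0.000192). In shCon against control, where 56.4% of all genes tested were called, 4 of the 11 were higher and 1 was lower. In LAPC4, 2 rose and 5 fell, and DICER1, which cuts let-7 precursors, fell by 0.44 (edgeR adjusted p = 0.000423). With shOC2, where 54.1% of all genes tested were called, 4 of the 11 rose and 5 fell. TUT7 was among those that rose with shOC2 (1.31), as was DICER1 (0.74). Of the let-7 host transcripts, MIR100HG stood at 0 in all 3 LAPC4 Vec libraries and at 6.59 ± 0.25 CPM in OC2 OE, while MIR99AHG fell by 1.49 (adjusted p = 0.000189). In LNCaP MIR100HG was at 0 in OC2 OE and control alike. Known let-7 targets outside the 7 genes rose in 9 of 19 and fell in 2 in LNCaP, where the list's median log2 change was 0.39. Between shCon and control, without added OC2, 9 of 19 were likewise higher and 3 lower, with a median of 0.30. In LAPC4 8 of 19 rose and 4 fell, with a median of 0.11. Of these, CCND1, which encodes cyclin D1, rose in both lines (1.85, adjusted p = 2.52e-08, and 0.89, adjusted p = 4.11e-06).

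Known client messages of the IGF2BP proteins rose in 7 of 11 and fell in 1 in LNCaP OC2 OE, and rose in 6 of 9 and fell in 1 in LAPC4. As for the lists above, 60.8% of all genes tested were called in LNCaP and 61.1% in LAPC4. CD44, an adhesion receptor, went from 0.09 to 9.43 CPM in LNCaP and from 0.83 to 373 CPM in LAPC4 (edgeR adjusted p = 4.43e-11). With 4 counts in LNCaP control, CD44 passed the filter there only through OC2 OE, so it had to differ. FSCN1, an actin-bundling protein, rose by 1.81 (adjusted p = 5.49e-07) and 1.80 (adjusted p = 1.49e-06). Of 15 partner and m6A proteins of the family, 8 rose and 2 fell in LNCaP, and 5 rose and 1 fell in LAPC4. Among 11 genes linked to HMGA proteins, 6 rose and 2 fell in LNCaP, and 4 rose and 3 fell in LAPC4. In shCon against control, where 56.4% of all genes tested were called, 3 of 10 client messages were higher and 1 was lower. For the 15 partner and m6A proteins 5 were higher and 3 lower there, and for the HMGA list 3 and 3. TWIST1 in LNCaP went from 0.14 to 41.7 CPM but stood at 11.1 CPM in shCon. Against control it too passed the filter only through OC2 OE and had to differ. SNAI2 in LAPC4 rose from 0.90 to 21.0 CPM (edgeR adjusted p = 1.02e-08). Of 11 other oncofetal genes, 6 were tested in LNCaP, of which 3 rose and 2 fell. PEG10 went from 2.19 to 598 CPM (adjusted p = 3.03e-10) while GPC3 fell from 15.4 to 1.45 CPM (adjusted p = 1.52e-07), with shCon at 38.5 and 2.48 CPM. PEG10 fell from 38.5 to 3.77 CPM with shOC2 (adjusted p = 2.71e-08). Luminal markers fell in 5 of 9 and rose in 2 in LNCaP OC2 OE, and fell in 7 of 9 and rose in 1 in LAPC4.

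In the combination against vehicle, where 46.8% of all genes tested were called, 7 of 20 tested let-7 targets fell and 0 rose, among them CDK6 (8.21 to 1.38 CPM, adjusted p = 6.86e-05). IGF1R, a growth factor receptor, stood at a log2 value of -2.79 there (adjusted p = 6.38e-07). With shOC2, where 54.1% of all genes were called, IGF1R rose by 2.21 (adjusted p = 2.57e-07), and 7 of 19 targets rose while 6 fell. IGF1R also rose with added OC2, by 1.62 in LNCaP and by 0.87 in LAPC4. It was higher in shCon than in control by 1.80, and with enzalutamide alone it stood at -1.48 against vehicle.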

How the data were processed

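RNA was measured in 23 libraries, grouped as the labels name them. FastQC 0.9.0, Bowtie2 and hg38 are named in the submitters' processing notes. The tool that counted reads, its annotation and any use of strand: not given in the sources used here. For LAPC4 and enzalutamide, the authors deposited whole read counts per gene. For all other groups the authors deposited estimated counts, which were rounded to whole numbers here. Identifiers matched a symbol for 99.5% of rows in the LNCaP table, 98.7% in LAPC4 and 62.9% in the drug table.

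The 7 genes, the gene lists and the alternatives were chosen with earlier results of these data known. Each comparison was fitted across all genes with edgeR 4.0.16 in R 4.3.3 (TMM, filterByExpr, quasi-likelihood F-test, Benjamini-Hochberg adjustment, threshold 0.05). Overexpression and knockdown were fitted on their own groups, and the 3 drug arms together. DESeq2 1.42.0 was an alternative. Levels are CPM on the TMM-scaled size within a table, and SEs were derived from F. Ratios of summed counts, with their bounds and intervals, are scaled for library size. Lower bounds use 3 counts per library, and intervals are exact 95% (Clopper-Pearson). Exonic bases are the union of all GENCODE 29 exons of a gene.

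Named genes were ONECUT2, the 7 members, up to 3 called genes of largest change (at least 1 CPM) and 2 uncalled genes of highest level per list and comparison, antisense genes and copies with counts, and the 3 genes most correlated with a member (log2(CPM + 1)). MATR3, MALSU1, POU5F1, NANOG, COL1A2 and CD3E were named after their values were seen. Tested on simulated counts for LNCaP overexpression over 16570 genes, the fit called 77% of genes set to 2-fold, 96% of those set to 4-fold and 21 unchanged genes. For the combination against vehicle, over 16922 genes, it called 60%, 96% and 10. Only a small share of genes was changed in these simulations, while 60.8% and 46.8% were called in the data. These rates therefore need not hold for the fits to the data.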

Additional observations from a re-analysis of the deposited data

Results flagged for a closer look

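The effect of OC2 overexpression on IGF2BP2 differed between the lines: the log2 fold change was higher in LAPC4 than in LNCaP by 1.39 (SE 0.27) when the LNCaP control libraries were the reference. With the shCon libraries as the reference the difference was -0.73 (SE 0.34) and was not called. The IGF2BP2 level behind the LNCaP ratio was 1.03 ± 0.36 CPM in control and 0.25 ± 0.12 CPM in shCon (n = 2 each).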

How the results depend on the processing

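The members' 25 fold changes were recomputed under other scaling (DESeq2 size factors), without the filter, with DESeq2's Wald test, with fewer arms, with shCon as reference and without each library. Of 233 such values, 225 kept their side of the threshold and, where called, their direction. IGF2BP3 in LNCaP overexpression, not called, went from 0.07 to -0.05 without control replicate 1. Outside leave-one-out, the exceptions were the LNCaP overexpression values against shCon, -0.22 for HMGA1 and 1.35 for IGF2BP3. The difference between lines became -0.73 for IGF2BP2, -1.18 for IGF2BP3 and 1.16 for HMGA1 with shCon. The cause was not tested. Leaving out 1 library gave 6 further changes: IGF2BP3 in LAPC4 without Vec replicate 1 or OC2 OE replicate 3, IGF2BP3 and IGF2BP2 in the combination against vehicle without replicate 3 or 1, HMGA1 between the combination and enzalutamide, and IGF2BP2 between shCon and control without control replicate 2 (-1.63, SE 0.53). Genes called in the knockdown went from 8969 to between 5076 and 7863, with 5076 and 5524 without shOC2 replicate 1 or 2. Members called in the combination against vehicle ranged from 1 to 3.

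With a replicate block, 11256, 9808 and 8521 genes were called in LNCaP overexpression, LAPC4 overexpression and knockdown. For the combination against vehicle the block was fitted on those arms alone and called 9375 genes, beside 9388 on the same arms without it and 8145 with all 3 arms. No member's call changed among those fitted. Correlations between the deviations of same-numbered libraries ran from -0.10 to 0.11. In LAPC4 0 of 6 libraries, and in the combination and vehicle arms 4 of 6, correlated best with their own number. Such correlations cannot show whether the numbers mark a pairing by design, and the labels state none. Depth limits IGF2BP1, HMGA2, LIN28A and LIN28B in LNCaP, which lay at or under 3 counts per library without added OC2.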
